A study of Monodelphis domestica with 8 samples.

Results

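Broad acetylated H3K4me3 peaks are the H3K4me3 peaks of chromosomes 1 to 8 chosen by a width of 5000 bp or more, by at least 1 bp in common with an H3K9Ac peak and by contact with no H3K27me3 peak. There were 768 of them among 22086 H3K4me3 peaks on these chromosomes (3.48%), and among 23987 in the whole list. The tissue was whole brain of female fetuses, at embryonic day 13, of Monodelphis domestica, the gray short-tailed opossum, a laboratory marsupial. Chromatin cut with micrococcal nuclease was immunoprecipitated and sequenced (ChIP-seq). The 8 libraries comprised 2 per mark, for H3K4me3, H3K9Ac, H3K27me3 and H3K9me3, and each came from the pooled tissue of 2 sister fetuses. The first pool had an LL2 mother and an LL2 father, and the other an LL1 mother and an LL2 father.

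The labels tie both libraries of a mark to a shared peak list, so every mark has a single set of values and no replicate error can be given. No test across samples was possible, and intervals in parentheses after shares are exact Clopper-Pearson 95% intervals that cover the counting of peaks only. Read counts are not part of the lists, and the depth behind each peak is unknown. Whole brain was used, so a mark in fewer cells and less of it per cell cannot be told apart, and peaks that overlap need not come from the same cells. Regions are named by position, with the first base counted as 1. The sources used here do not name the genome build, so no sequence or gene was read at these positions.

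H3K4me3, the trimethylation of lysine 4 of histone H3, is laid down at active and poised promoters and usually forms a short peak around the transcription start site. In many mammalian cell types a small set of promoters carries much longer stretches of the mark, and such broad domains are known for marking genes of cell identity, in neural progenitors among others. H3K9Ac, the acetylation of lysine 9, accompanies active transcription, whereas H3K27me3 is the mark of Polycomb repressive complex 2 and meets H3K4me3 at bivalent promoters. H3K9me3 is best known from constitutive heterochromatin.

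The width, the presence of H3K9Ac and the absence of H3K27me3 chose these peaks, so the following counts describe the choice and are no test of it. Peaks of 5000 bp or more made up 4.87% of H3K4me3 peaks, or 1076 peaks. Of these, 768 (71.4%, 68.6% to 74.1%) carried H3K9Ac without H3K27me3, a combination found at 39.5% of H3K4me3 peaks of any width. The other broad peaks comprised 122 with both marks, 90 with H3K27me3 alone and 96 with neither. The share with H3K9Ac and no H3K27me3 was 6.36% below 1000 bp, 20.9% at 1000 to 1999 bp, 52.3% at 2000 to 2999 bp and 66.3% at 3000 to 3999 bp. It was 70.1% (67.5% to 72.7%) at 4000 to 4999 bp, so the broad peaks differed from the width class next to them by less than these intervals. The share with both marks was 11.3% (9.51% to 13.4%) among broad peaks and 5.73% (4.50% to 7.17%) at 4000 to 4999 bp.

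**Figure D1:**
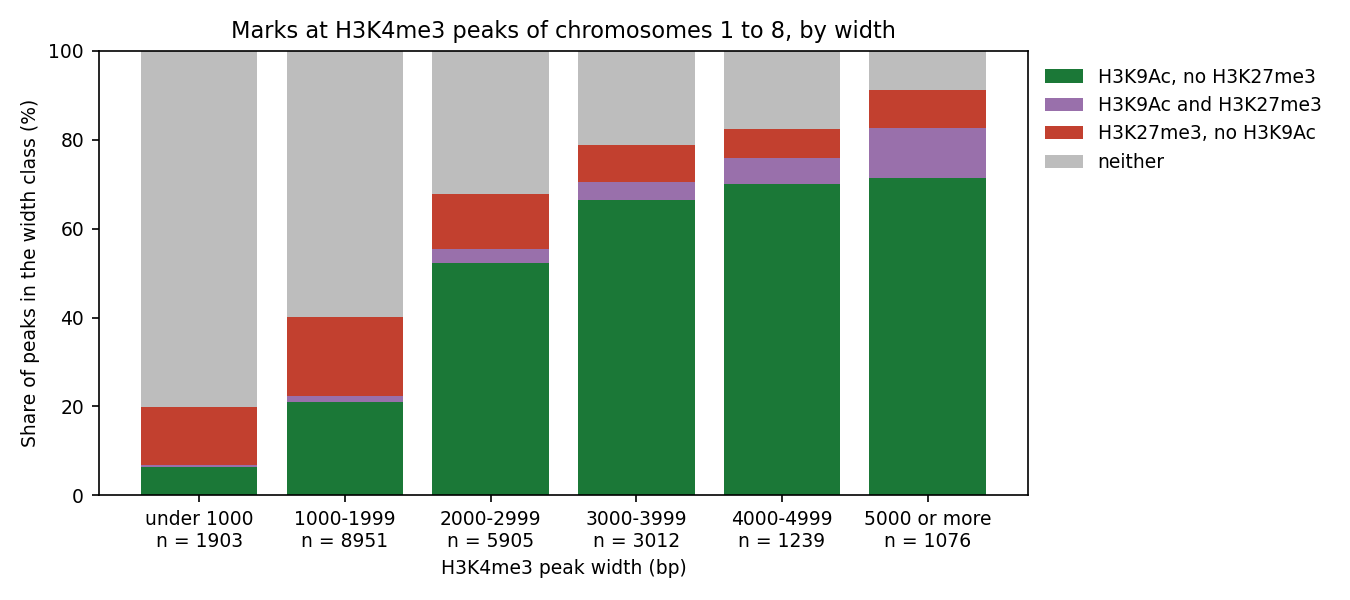
Share of H3K4me3 peaks on chromosomes 1 to 8 (y axis, percent) in 6 classes of peak width (x axis, bp), stacked by the other marks that overlap them. The green share, H3K9Ac without H3K27me3, is 6.36% in the narrowest class and 71.4% in the broadest.

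The 768 peaks spanned 4.84 Mb, which was 9.27% of the sequence under H3K4me3 peaks on chromosomes 1 to 8. Their median width was 5856 bp (quartiles 5330 and 6680 bp). Most lay close to the threshold and a few were far wider: 335 reached 6000 bp, 160 reached 7000 bp, 86 reached 8000 bp and 24 reached 10000 bp. No gap in width set them apart, since 116 acetylated peaks without H3K27me3 measured 5000 to 5199 bp and 127 measured 4800 to 4999 bp. The peaks just inside, chr2:103602223-103607222 (5000 bp), chr1:626312485-626317485 (5001 bp) and chr2:81909363-81914367 (5005 bp), had H3K4me3 scores of 1800, 2500 and 1659. The peaks just outside, chr8:166081805-166086803 and chr1:708178468-708183466 (4999 bp each) and chr2:123422718-123427714 (4997 bp), had scores of 2302, 1492 and 1759. Scores on either side of the threshold overlapped.

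The widest of the 768, chr8:251866516-251882872, measured 16357 bp and held 4 H3K9Ac peaks that covered 77.0% of it. These were 4750, 4165, 2844 and 837 bp long, with H3K9Ac scores of 548, 388, 285 and 52.9 in order along the chromosome. Acetylation here was spread over most of the broad peak and was weakest at its far end. Next came chr2:233115832-233131950, 16119 bp wide, whose 4 H3K9Ac peaks covered 48.5% and lay between 1422 and 11740 bp from its start, which left the far end free. It lay only 3878 bp from another broad acetylated peak, chr2:233135829-233141296.

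Other very wide peaks carried acetylation on a small part of their length. The 13102 bp peak chr1:343903929-343917030 held a single H3K9Ac peak of 1253 bp, 978 bp from its start, which covered 9.56% of it. The 12876 bp peak chr7:88010024-88022899 held H3K9Ac peaks of 1131 and 797 bp that covered 15.0%, and the 11925 bp peak chr5:4156089-4168013 held a single one of 1641 bp that covered 13.8%. In these 3 peaks most of the H3K4me3 stretch had no H3K9Ac peak. By contrast, the 13813 bp peak chr6:178319898-178333710 and the 11840 bp peak chr8:156336734-156348573 each held a single long H3K9Ac peak, of 5264 and 6109 bp, with scores of 602 and 1155. The remaining 3 of the 10 widest were chr2:155802898-155816223 (13326 bp, 4 H3K9Ac peaks, 61.6% covered), chr7:83234080-83246654 (12575 bp, 3 peaks, 28.2%) and chr3:354922088-354934142 (12055 bp, 3 peaks, 35.7%). Covered share thus ranged from 9.56% to 77.0% among peaks of similar width.

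**Figure D2:**
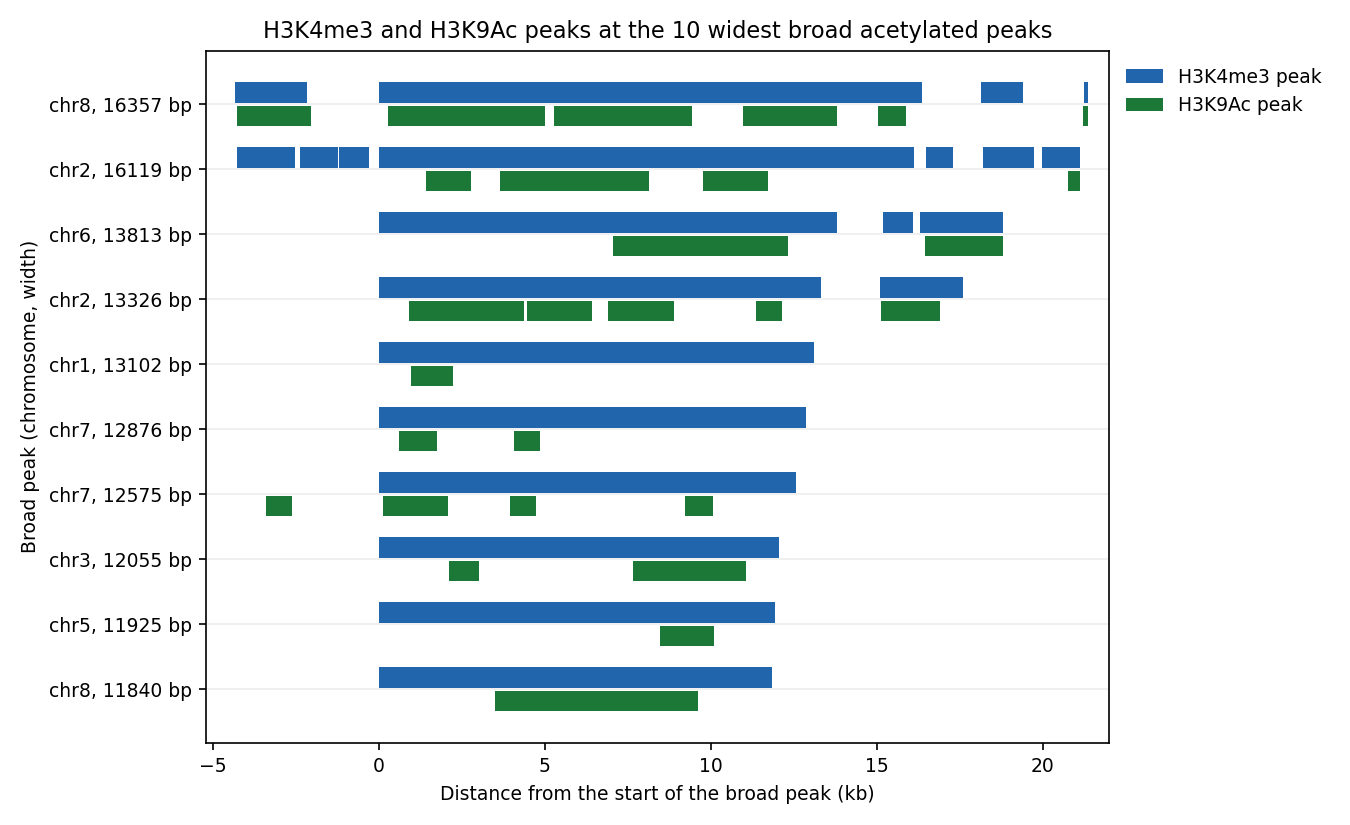
Deposited H3K4me3 peaks (blue) and H3K9Ac peaks (green) at the 10 widest broad acetylated peaks, with distance from the start of the broad peak on the x axis (kb) and 5 kb shown on either side. H3K9Ac fills from 9.56% (chr1, 13102 bp) to 77.0% (chr8, 16357 bp) of these peaks, and no H3K27me3 or H3K9me3 peak lies in the windows drawn.

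The score of a peak is the authors' value, whose computation no file header describes. The score and the width come from the same list, so the scores are given as a description. The median H3K4me3 score of the broad acetylated peaks was 2049 (quartiles 1578 and 2613, range 557 to 3233). Among acetylated peaks without H3K27me3 the median was 62.4 below 1000 bp, 244 at 1000 to 1999 bp, 709 at 2000 to 2999 bp, 1105 at 3000 to 3999 bp and 1461 at 4000 to 4999 bp. Wider classes thus had higher scores throughout, and within the 768 peaks their Spearman rho was 0.49, across peaks of a single list that share its libraries. Of the 768, 88 held exactly 3100 and 26 exceeded it, against 106 and 31 among all H3K4me3 peaks of chromosomes 1 to 8. Many of the strongest were therefore tied and could not be ranked by score.

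Other broad peaks had lower median scores. The median was 1785 for the 122 with both H3K9Ac and H3K27me3 (median width 6703 bp), 1400 for the 96 with neither (5793 bp) and 1133 for the 90 with H3K27me3 alone (6104 bp). All 4 distributions overlapped widely. The highest scores, 3233 each, belonged to chr2:233135829-233141296, which was only 5468 bp wide, and chr3:269074150-269082425 (8276 bp). The next were chr1:485881596-485889274 (7679 bp, score 3228), chr3:42212326-42223437 (11112 bp, 3224) and chr6:245057900-245064227 (6328 bp, 3218). None of these 5 was among the 10 widest. Those 10 all held the tied score of 3100, except chr5:4156089-4168013 with 3113. How tied peaks compare with those just above 3100 is not known, so this order need not be one of enrichment.

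**Figure D3:**
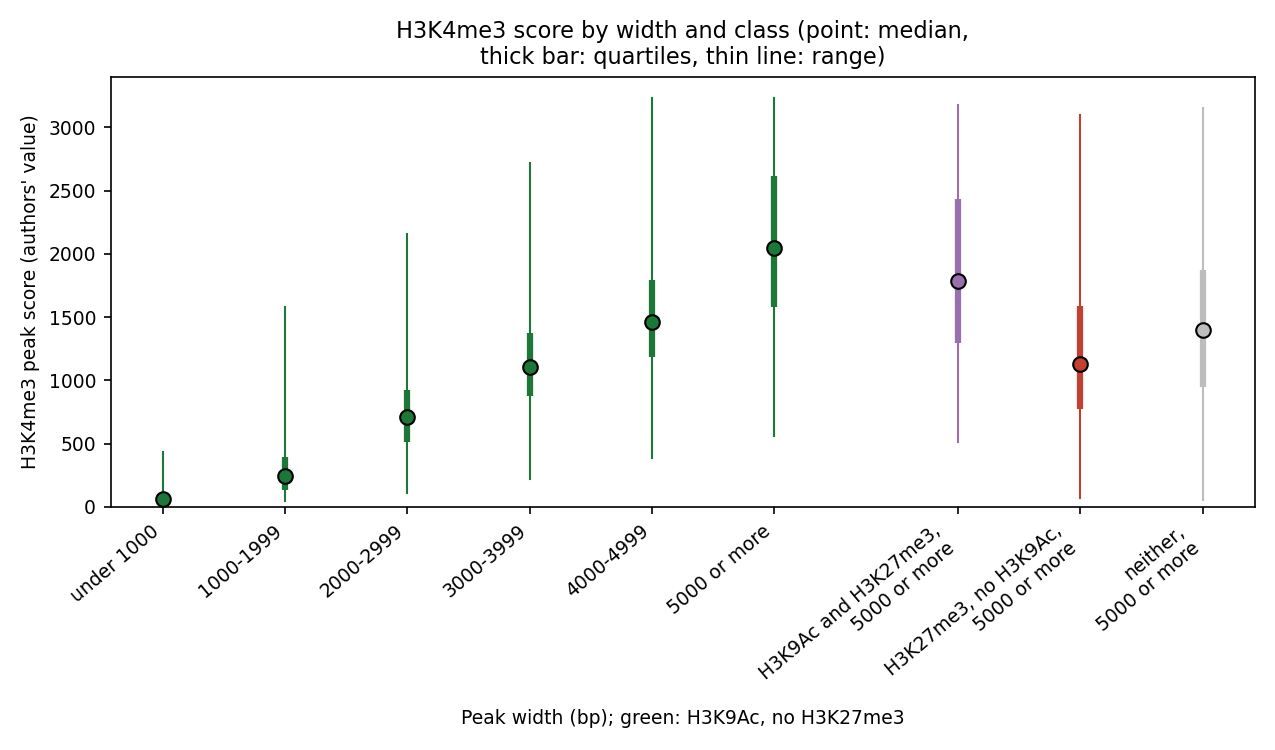
H3K4me3 peak score (y axis, the authors' value) by peak width for acetylated peaks without H3K27me3 (green) and, at the right, for the other classes of broad peaks. Points are medians, thick bars quartiles and thin lines ranges, and the broad acetylated peaks have the highest median, 2049, of the groups drawn.

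Although 1 bp of H3K9Ac was enough for a peak to be chosen, its amount was not set by the rule beyond that. The amount is described without a test, since H3K9Ac was used for the choice. The broad peaks held 1252 of 11858 H3K9Ac peaks on chromosomes 1 to 8 (10.6%). A single H3K9Ac peak lay in 395 of the broad peaks (51.4%), 2 lay in 279 (36.3%), 3 in 78, 4 in 15 and 5 in 1. Thus 373 (48.6%, 44.98% to 52.2%) held 2 or more, against 12.9% of all H3K4me3 peaks with H3K9Ac and no H3K27me3. The share with 2 or more was 6.12% at 2000 to 2999 bp, 14.5% at 3000 to 3999 bp and 27.8% (24.9% to 31.0%) at 4000 to 4999 bp, and longer peaks have more room for several. The peak with 5 was chr1:109382588-109392795, of 10208 bp, where they covered 49.7%.

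H3K9Ac did not fill the broad peaks. The median covered length was 2074.5 bp (quartiles 1356 and 2753 bp), or 33.5% of the width (22.5% and 45.9%), and only 132 broad peaks (17.2%, 14.6% to 20.05%) were covered over at least 50% of their length. In sum, 1.697 Mb of the 4.84 Mb lay under H3K9Ac and 3.14 Mb did not. The name acetylated therefore describes an overlap and not full acetylation of these regions. Covered length was larger in wider classes, from a median of 1212 bp at 2000 to 2999 bp through 1409 and 1647 bp to 2074.5 bp in the broad peaks. Covered share was smaller, from 49.3% through 41.3% and 37.3% to 33.5%. Across the width classes the length under H3K9Ac thus grew less than the width. Within the 768 peaks width had a Spearman rho of 0.26 with covered length and of -0.06 with covered share.

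**Figure D4:**
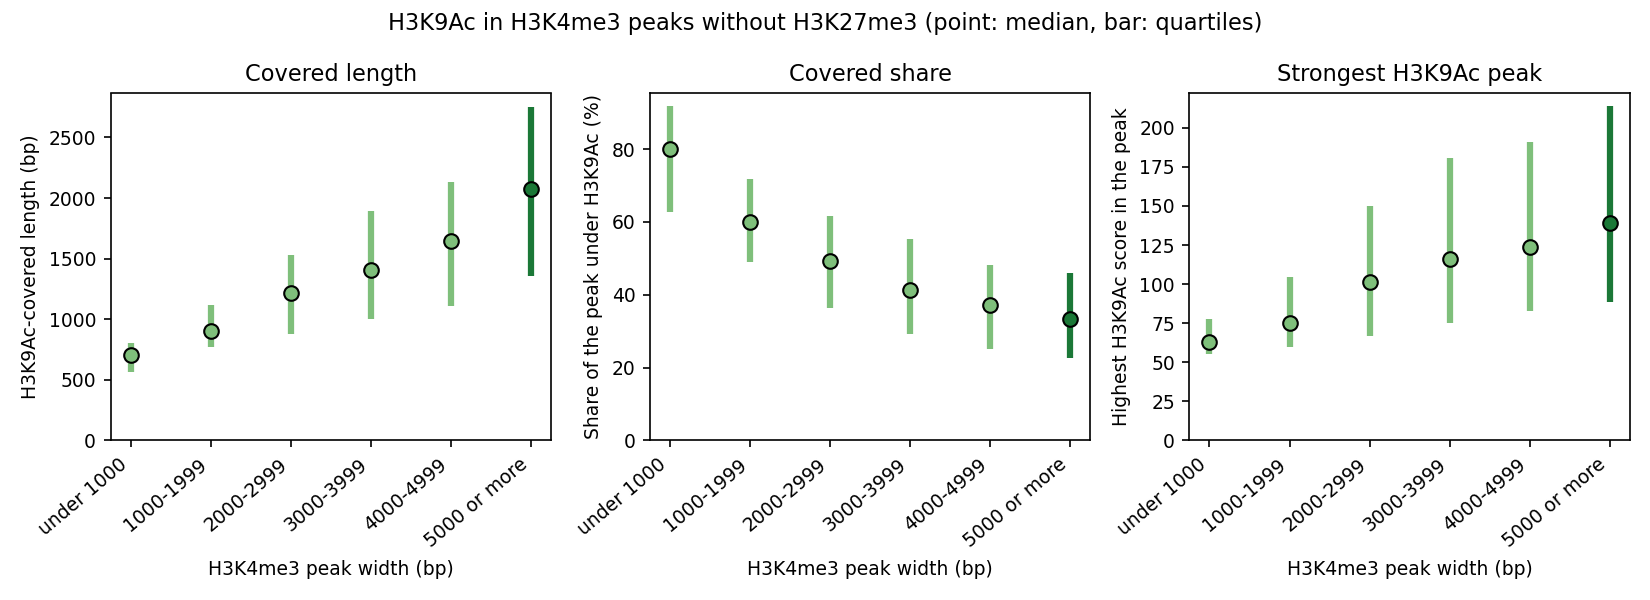
H3K9Ac-covered length (bp), covered share (percent) and highest H3K9Ac score in H3K4me3 peaks with H3K9Ac and no H3K27me3, by peak width (x axis, bp). Points are medians and bars quartiles, and the broad peaks at the right of each panel have the longest covered length (2074.5 bp) and the smallest covered share (33.5%).

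The strongest H3K9Ac peak in a broad peak had a median score of 139 (quartiles 88.4 and 214), compared with 102 in acetylated peaks of 2000 to 2999 bp and 124 in those of 4000 to 4999 bp. Of the 100 highest-scoring H3K9Ac peaks on chromosomes 1 to 8, 40 lay in broad acetylated peaks, as did 7 of the 10 highest, and 53 of the 100 longest did, as did 9 of the 10 longest. These are to be read against the 10.6% of all H3K9Ac peaks that lay there, and a long H3K9Ac peak can lie only in a long H3K4me3 peak if it lies within it. A comparison within a band of H3K4me3 score gave another order. Among peaks scoring 1500 to 2499, the 393 broad ones had a median best H3K9Ac score of 129 (quartiles 90.5 and 194) and the 784 narrower ones 162 (107 and 236). Their covered lengths were close, at 2019 and 1843 bp, whereas the covered shares were 34.3% and 48.0%. Within this band the broad peaks still had the higher median H3K4me3 score, 1972 against 1716. The wider peaks did not have higher H3K9Ac scores there, and the quartile ranges of the H3K9Ac scores overlapped.

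Broad peaks with H3K27me3 as well as H3K9Ac carried less acetylation. Their best H3K9Ac score had a median of 81.2 (quartiles 59.9 and 117), and H3K9Ac covered 21.8% of their width (14.0% and 31.0%), although they were wider than the peaks without H3K27me3. This was not particular to broad peaks. Below 5000 bp these medians were 66.1 and 38.0% with both marks, against 97.8 and 49.0% with H3K9Ac and no H3K27me3.

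Individual peaks at the extremes of covered share did not follow their H3K4me3 score. The most fully acetylated was chr3:211982504-211989203, where an H3K9Ac peak of 6539 bp covered 97.6% of 6700 bp. Its H3K9Ac score of 1185 was the highest on chromosomes 1 to 8, and its H3K4me3 score was 3100. Next were chr3:246798448-246803614 (94.97% covered), chr1:499039295-499044374 (89.6%) and chr1:129681408-129687292 (83.5%). Their best H3K9Ac scores were 189, 751 and 660, above the median of the broad peaks, while their H3K4me3 scores of 1129, 992 and 1052 were below the lower quartile. The fifth, chr1:626312485-626317485, had 79.2% covered and an H3K4me3 score of 2500.

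At the other end, H3K9Ac covered 7.16% of chr2:203538236-203546870, an 8635 bp peak with a single H3K9Ac peak of 618 bp. It covered 7.74% of chr4:313419855-313426752, 8.17% of chr4:319435140-319440315, 8.69% of chr8:206463581-206470741 and 9.22% of chr1:98138050-98145822. The H3K4me3 scores of these 5 ranged from 1080 to 2387, so weakly acetylated peaks included some above the median of 2049. Their H3K9Ac scores ranged from 53.9 to 121, and the lowest score in the H3K9Ac list is 50.01.

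The place of H3K9Ac along the broad peaks differed from that in acetylated peaks of 2000 to 2999 bp, the only narrower class profiled. Averaged over the 768 peaks, H3K9Ac covered 12.9% of the outermost 10% at each end and 46.0% of the central 20%. In acetylated peaks of 2000 to 2999 bp the values were 9.59% and 83.9%, a much steeper profile. The flatter profile of the broad peaks came with off-centre acetylation in single peaks. A lone H3K9Ac peak in a broad peak had its midpoint a median of 20.6% of the width from the centre (quartiles 9.88% and 29.5%). The median was 8.47% at 2000 to 2999 bp, 12.8% at 3000 to 3999 bp and 16.1% (quartiles 9.07% and 25.3%) at 4000 to 4999 bp. It thus rose step by step over these classes, and the quartile ranges of the broad peaks and the class next to them overlapped. A short H3K9Ac peak in a long H3K4me3 peak has more room to lie off centre, and this geometry was not adjusted for.

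The ends of a broad peak could be free of acetylation to unequal lengths. The median length free of H3K9Ac was 2765 bp at the longer free end and 627 bp at the shorter one, an order set by naming the ends that way, and the values were 1980 and 539 bp at 4000 to 4999 bp and 836 and 361 bp at 2000 to 2999 bp. In 311 broad peaks (40.5%, 37.0% to 44.1%) at least 50% of the width at an end had no H3K9Ac peak, compared with 37.2% (33.9% to 40.5%) at 4000 to 4999 bp and 13.1% (11.9% to 14.3%) at 2000 to 2999 bp. The shares of the broad peaks and of the width class next to them had overlapping intervals. Where several H3K9Ac peaks lay in a broad peak, the 484 gaps between neighbours had a median of 357 bp (quartiles 104.5 and 1005 bp, longest 6064 bp), against 145 bp in narrower acetylated peaks. Neighbouring H3K9Ac peaks thus lay farther apart in the broad peaks, but a wider peak has more room for a gap and this was not adjusted for. An H3K9Ac peak ran past the edge of the broad peak in 37 cases (4.82%), against 4.72% at 4000 to 4999 bp and 11.4% of all acetylated peaks without H3K27me3.

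**Figure D5:**
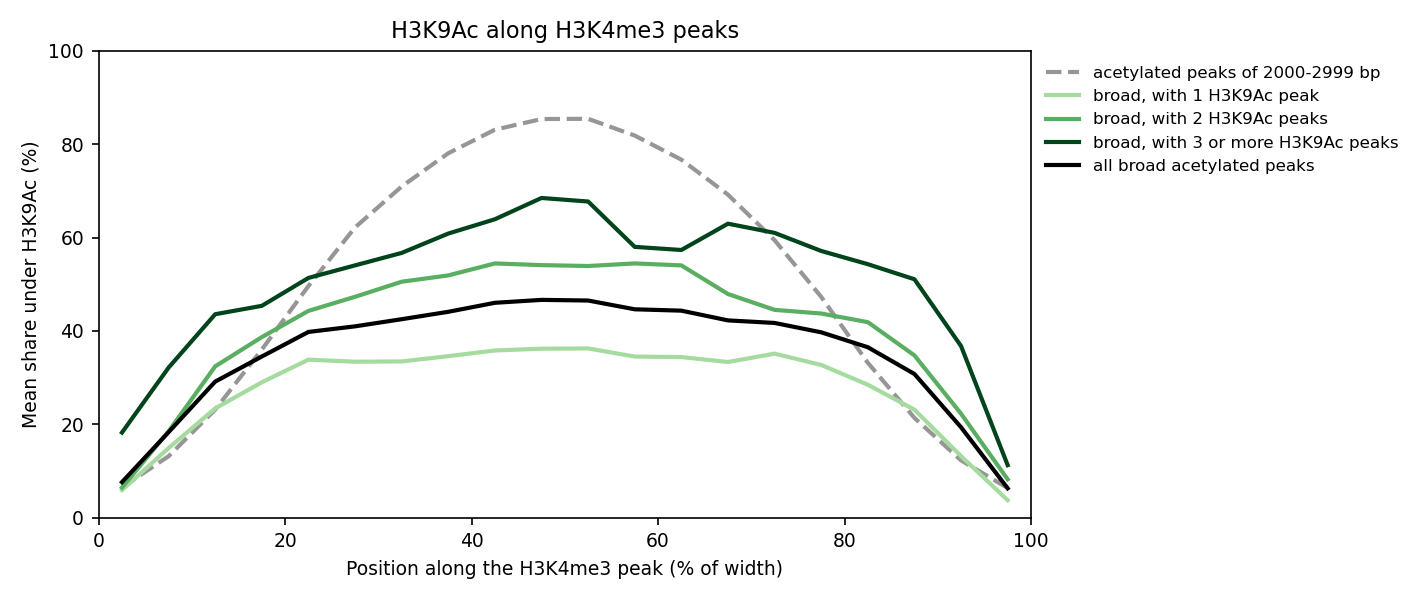
Mean share under H3K9Ac (y axis, percent) along H3K4me3 peaks scaled to the same width (x axis, percent of width, 20 bins). The 768 broad peaks (black) have 46.0% in the centre, and peaks of 2000 to 2999 bp (dashed) have 83.9%.

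The rule kept H3K27me3 out of the broad peaks and set no distance to it beyond that. The nearest H3K27me3 peak lay a median of 338 kb away (quartiles 143 and 803 kb). The median was 228 kb for acetylated peaks of 2000 to 2999 bp, 247 kb at 3000 to 3999 bp and 288 kb at 4000 to 4999 bp. Broad acetylated peaks thus had a longer median distance to H3K27me3 than the narrower classes, and their quartile ranges overlapped. The rule bears on these distances and on the shares within 50 kb, since peaks that touch H3K27me3 were left out. Both marks were found at 11.3% of broad peaks but at 3.12% of H3K4me3 peaks of 2000 to 2999 bp. Distances with the touching peaks counted were not computed. An H3K27me3 peak lay within 50 kb of 64 broad peaks (8.33%, 6.48% to 10.5%), against 14.2% of all acetylated peaks without H3K27me3 and 10.4% (8.41% to 12.6%) of those of 4000 to 4999 bp, whose interval overlaps that of the broad peaks. The share was 17.0% (15.3% to 18.7%) at 1000 to 1999 bp. The 96 broad peaks with neither mark had such a neighbour in 15.6% (9.02% to 24.5%). At an H3K4me3 score of 1500 to 2499 the shares were 7.12% (4.79% to 10.1%) for broad and 10.6% (8.52% to 13.0%) for narrower acetylated peaks, with overlapping intervals.

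Within 5 kb, H3K27me3 was found at 4 broad acetylated peaks (0.521%, 0.142% to 1.33%), against 1.92% of all acetylated peaks without H3K27me3 and 1.38% (0.716% to 2.40%) of those of 4000 to 4999 bp. The rule bears on this share too, since peaks that touch H3K27me3 were left out and a wider peak reaches a nearby one more readily. When an overlap had to take up 50% of the shorter peak, 15 of 779 broad peaks (1.93%) had H3K27me3 within 5 kb. Peaks that touch H3K27me3 over less than that count here as within 5 kb. No background was computed under this setting, so the 1.92% is not its match. The 4 were chr6:82123416-82131337 (1618 bp away), chr6:156165282-156170756 (1925 bp), chr2:232820583-232827257 (3808 bp) and chr7:252734918-252742086 (4245 bp). The fifth nearest, chr2:103602223-103607222, was 6717 bp away. The 4 had H3K4me3 scores of 2973, 913, 2998 and 2086 and covered shares of 65.9%, 16.1%, 49.9% and 23.5%, which span most of the range of the broad peaks.

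H3K9me3, which the rule did not use, was found at 5 broad acetylated peaks (0.651%, 0.212% to 1.51%), against 0.484% of all H3K4me3 peaks on chromosomes 1 to 8. Among all acetylated peaks without H3K27me3 it was 0.275% (0.177% to 0.410%), and the intervals overlapped. It was 0.806% (0.324% to 1.65%) in acetylated peaks of 4000 to 4999 bp and 2.60% (1.13% to 5.05%) in the 308 other broad peaks, with overlapping intervals. The 5 were chr2:109876306-109883440, chr3:454917531-454923052, chr6:82123416-82131337, chr8:13573996-13585191 and chr8:49806794-49811943. The H3K9me3 peaks there were 626 to 878 bp long, with scores of 54.4 to 63.9. The H3K9me3 list has a lowest score of 50.03 and a median of 58.9. All 5 thus had low scores, as is usual in that list. Each lay wholly inside the broad peak, and 4 of the 5 overlapped H3K9Ac there. The peak chr6:82123416-82131337 was thus among both the few with H3K9me3 and the few beside H3K27me3.

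Further H3K4me3 peaks often lay beside the broad ones. The nearest other H3K4me3 peak was a median of 28.5 kb away (quartiles 4.72 and 80.5 kb). It lay within 5 kb at 199 broad peaks (25.9%, 22.8% to 29.2%), against 23.2% of all acetylated peaks without H3K27me3 and 29.0% of all H3K4me3 peaks, so the share lay near the background. The share was 18.8% (16.2% to 21.5%) at 4000 to 4999 bp, below that of the broad peaks, and at an H3K4me3 score of 1500 to 2499 it was 20.9% (17.0% to 25.2%) in broad and 17.5% (14.9% to 20.3%) in narrower peaks. Other broad peaks were more crowded, with an H3K4me3 neighbour within 5 kb in 60.7% (51.4% to 69.4%) of those with both marks, 55.6% (44.7% to 66.0%) of those with H3K27me3 alone and 39.6% (29.7% to 50.1%) of those with neither.

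Most neighbours within 5 kb were peaks without acetylation. Of the 199 nearest ones, 128 (64.3%) carried neither H3K9Ac nor H3K27me3 and 69 (34.7%) carried H3K9Ac without H3K27me3, while 1 carried H3K27me3 alone and 1 both. Their median width was 1668 bp and their median H3K4me3 score 146. The nearest neighbours within 5 kb of the 1823 narrower acetylated peaks that had one carried neither mark in 51.7%, with a median width of 1836 bp and a median score of 297. Over all H3K4me3 peaks these values were 44.0%, 2029 bp and 344. At 120 of the 768 broad peaks an H3K4me3 neighbour was less than 1000 bp away, a count whose share over other peaks was not computed. At the other extreme, 158 broad peaks (20.6%) had no H3K4me3 peak within 100 kb, against 16.6% of narrower acetylated peaks. An H3K9Ac peak outside the broad peak and within 10 kb of it was found at 125 (16.3%, 13.7% to 19.1%), against 15.7% (14.4% to 17.0%) at 2000 to 2999 bp and 10.6% (8.62% to 12.8%) at 4000 to 4999 bp.

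Broad acetylated peaks were present on all 8 chromosomes. They numbered from 17.3 per 100 Mb on chromosome 7 to 29.6 per 100 Mb on chromosome 2, with chromosome length measured between the outermost peaks of the 4 lists. As a share of H3K4me3 peaks they made up from 2.87% (2.30% to 3.54%) on chromosome 4, with 86 of 2994, to 4.23% (3.37% to 5.23%) on chromosome 8, with 81 of 1916. The intervals of these extremes overlapped. Chromosome 1 held 174, chromosome 2 160, chromosome 3 104, chromosome 6 64, chromosome 5 54 and chromosome 7 45. Median width ranged from 5608.5 bp on chromosome 5 to 6465 bp on chromosome 7, and median covered share from 28.8% on chromosome 7 to 38.9% on chromosome 4.

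Most broad peaks had no other broad acetylated peak within 100 kb. The median distance to the nearest other broad acetylated peak was 1203 kb (quartiles 361 and 2985 kb), and 73 (9.51%, 7.53% to 11.8%) lay less than 100 kb from another, in 29 groups of 2 and 5 groups of 3. Such values depend on how many peaks are chosen, here 22.5 per 100 Mb. The share was 17.6% with a threshold of 4000 bp and 4.78% with 6000 bp. No share at this density was computed for other peaks, so neither isolation nor clustering can be read from it. Of the groups of 3, 4 lay on chromosome 2. The longest ran over chr2:233115832-233223388 and comprised peaks of 16119, 5468 and 10062 bp, with H3K4me3 scores of 3100, 3233 and 3100. The next, over chr2:254228176-254331603, had peaks of 7365, 7118 and 5674 bp with scores of 2953, 1298 and 2434. The third, over chr2:266863243-266960101, had peaks of 5864, 8282 and 7056 bp with scores of 3100, 3100 and 2595. In all 3 groups every broad peak had at least 20.8% of its width under H3K9Ac.

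These 3 groups lie within 40 Mb of one another on chromosome 2, a stretch that was singled out after its values were seen. The window from 250 to 260 Mb held 20 broad acetylated peaks, the most of 347 windows of 10 Mb. The next fullest held 10, the median was 2 and 62 windows held none. From 230 to 270 Mb there were 37 broad acetylated peaks among 264 acetylated peaks without H3K27me3 (14.0%, 10.1% to 18.8%), against 8.81% over chromosomes 1 to 8, and 20 of the 37 belonged to 8 groups of 2 or 3. H3K4me3 peaks of any kind numbered 467 in these 40 Mb, or 117 per 10 Mb against a median of 55 over all windows. They were unevenly spread, with 213 from 250 to 260 Mb and 30 from 240 to 250 Mb.

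A few neighbours were nearly continuous and were also chosen after their values were seen. On chromosome 6 the peaks 82114511-82123187 (8677 bp) and 82123416-82131337 (7922 bp) were separated by 228 bp and filled 98.6% of their joint span. Each held 4 H3K9Ac peaks, with covered shares of 46.8% and 65.9% and best H3K9Ac scores of 91.3 and 458. On chromosome 2 the peaks 242542968-242551374 (8407 bp) and 242552149-242557275 (5127 bp) were 774 bp apart. There the first had a covered share of 45.5% and an H3K9Ac score of 597, and the other 15.8% and 58.6. In both places adjacent H3K4me3 stretches differed severalfold in the score of their strongest H3K9Ac peak.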

How the data were processed

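The 4 deposited lists were made by the authors from 8 ChIP-seq libraries. The submitters' processing notes name CASAVA 1.7, Bowtie 1.1.2 and MACS 1.0.1 but give no settings. The lists hold MACS peaks, per the file headers. The sources used here give no genome build, control library or peak threshold. The deposited score is the authors' value per peak, with no unit stated, and was compared only within a list. Width is end minus start.

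Peaks were overlapped by at least 1 bp, and distances were taken between edges. Medians, quartiles and exact 95% intervals were computed with Python 3.11.15, numpy 2.4.6, pandas 2.3.3, scipy 1.17.1 and matplotlib 3.10.9. Overlaps and distances were tested on simulated data. Regions named are the 10 widest, the 5 highest-scoring, the 5 with most H3K9Ac peaks (ties by width), the 5 largest and smallest covered shares, those with H3K9me3, the 5 nearest H3K27me3, the 3 longest groups (by number of peaks, then span) and the 3 on either side of the threshold, except where the text says otherwise. Members and rules were chosen with earlier results of these data known. Comparisons within the band of score, the profile along peaks and the windows of 10 Mb were added after the lists were seen. A gene table at hand was of another assembly and was not used.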

Additional observations from a re-analysis of the deposited data

Results flagged for a closer look

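Unplaced sequence was left out of the comparisons above, and 5 H3K4me3 peaks there met the same width and overlap conditions. They are given because they are a signal in data outside the comparisons, and nothing predicts a count of 0. They were 0.357% (0.116% to 0.831%) of 1401 H3K4me3 peaks there, against 3.48% on chromosomes 1 to 8. The widest of the 5 measured 42707 bp, with a score of 3100 and 3 H3K9Ac peaks, wider than any on chromosomes 1 to 8, and the others measured 9028, 7902, 6569 and 5329 bp. Of the 86 unplaced peaks of 5000 bp or more, 41 carried neither H3K9Ac nor H3K27me3 and 39 carried H3K27me3 alone.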

How the results depend on the processing

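Of 64 values (8 results under 8 other settings), 47 stayed within the 95% interval of the reported value, or within 1.5 times it for the number of peaks. Some of these could hardly move. Leaving out peaks with H3K27me3 within 1000 bp removed none of the 768, since the nearest lay 1618 bp away. Including X and unplaced sequence gave 776 peaks. With 4000 bp as the threshold there were 1637 peaks, 18.8% of acetylated peaks without H3K27me3, with a median score of 1674 and 17.6% within 100 kb of another. With 6000 bp these were 335, 3.85%, 2456 and 4.78%. Joining H3K4me3 peaks less than 1000 bp apart, with the highest score kept, gave 1098 peaks, which counts as within 1.5 times 768. The other values were then 13.0%, 1730, a covered share of 31.1% and 15.7% within 100 kb. The top-scoring 50% of all lists gave 12.3%, a score of 2148, a covered share of 31.7% and H3K9me3 at 0.166%, or 1 peak. Requiring 50% of the shorter peak gave 1.93% within 5 kb of H3K27me3, since peaks with a small overlap then count as free of it. Moving the threshold changes which peaks are counted, and the cause of the other changes was not tested. No paired analysis was possible because both libraries of a mark share a list. Depth is unknown, and low-scoring H3K9Ac or H3K27me3 below the calling threshold would not be seen.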

Other observations

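On X, 15 H3K4me3 peaks measured 5000 bp or more, of 500 in all. H3K27me3 without H3K9Ac was found at 9 of them, both marks at 2, neither at 1 and H3K9Ac without H3K27me3 at 3 (0.6% of the 500, 0.124% to 1.74%). These 3 were chrX:14464382-14471523 (7142 bp, H3K4me3 score 2054, 2 H3K9Ac peaks), chrX:35481126-35486234 (5109 bp, score 1372, 1 H3K9Ac peak) and chrX:40252527-40257749 (5223 bp, score 1625, 1 H3K9Ac peak). Their scores lay within the range of the broad acetylated peaks of chromosomes 1 to 8.

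The widest H3K4me3 peak on chromosomes 1 to 8 measured 27305 bp and carried H3K27me3 without H3K9Ac. On these chromosomes 4 H3K4me3 peaks were wider than the widest broad acetylated peak. Among the 100 widest H3K4me3 peaks, all of at least 8701 bp, 51 carried H3K9Ac without H3K27me3, 29 both marks, 15 H3K27me3 alone and 5 neither.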
